A study of Mus musculus with 6 samples.

Results

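The fibroblast growth factor (FGF) genes described here were 3 receptors (Fgfr1, Fgfr2 and Fgfr3), 2 secreted ligands (Fgf1 and Fgf9) and 4 intracellular FGF homologous factors, or FHFs (Fgf11, Fgf12, Fgf13 and Fgf14). They were taken by gene symbol from a count table of 24060 genes, and all 9 were found in it. RNA-seq was done on retinal ganglion cells (RGCs), the neurons that send their axons through the optic nerve, from C57BL/6 mice at embryonic day 18 (E18) and postnatal day 5 (P5). Each age had 3 samples, numbered 1, 3 and 4 at E18 and 6, 8 and 9 at P5, and neither age carried a treatment or an engineered allele in its labels. Retinas were digested with papain, macrophages were removed with an antibody, and RGCs were then held on dishes coated with an antibody to CD90, the product of Thy1. The comparison asked how gene expression differs between RGCs that extend axons readily, at E18, and RGCs that have lost much of this capacity, at P5.

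FGF receptors are tyrosine kinases at the cell surface that bind secreted FGFs together with heparan sulfate and pass the signal to the Ras-MAPK, phospholipase C and PI3 kinase pathways. In the developing retina FGF signalling is known for its part in patterning, in progenitor growth and in the guidance and growth of RGC axons. The FHFs resemble the ligands in sequence but are not secreted, and they are best known for binding the cytoplasmic tail of voltage-gated sodium channels.

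Each sample had between 81213639 and 114512853 counted reads, and samples of one age differed by more than sampling noise. Of 15 RGC markers 4 were higher and 5 lower at E18, and 6 did not pass the test. Their summed level was 8416 to 9894 CPM at E18 and 8959 to 10373 CPM at P5, where CPM was the count scaled to 1000000 reads per library after TMM normalization. The largest parts of this sum were Tubb3 and Nefl, which differed in opposite directions. Tubb3 was higher at E18 (2389 to 2778 CPM at E18 and 1777 to 1875 CPM at P5). Nefl was lower (1636 to 2134 CPM at E18 and 2361 to 3462 CPM at P5). Thy1, whose product the panning used, was among the lower ones (212 to 312 CPM at E18 and 469 to 690 CPM at P5), and Rbpms, which did not pass, lay between 276 and 329 CPM over the 6 samples. Of 14 dividing cell markers 10 were higher at E18 and 4 did not pass the test, and their summed level was 360, 143 and 86.5 CPM in E18 replicates 1, 3 and 4 against 66.7 to 82.6 CPM at P5. Of 12 progenitor markers 7 were higher at E18, with sums of 670 to 983 CPM at E18 and 525 to 668 CPM at P5. The sums of amacrine markers (872 to 967 CPM at E18, 1163 to 1508 CPM at P5) and bipolar markers (47.5 to 55.6 and 69.4 to 97.4 CPM) were higher at P5. Most of the amacrine sum was Calb2 (748 to 854 CPM at E18 and 1137 to 1478 CPM at P5), and of 10 amacrine markers tested 6 were higher at E18 and 1 was lower. Tfap2b, an amacrine factor, measured 47.5, 119 and 1.62 CPM in E18 replicates 1, 3 and 4 and at most 1.55 CPM at P5, so E18 replicates 1 and 3 stood apart in it. Of 6 bipolar markers tested 1 was higher and 3 were lower at E18, Prkca making up most of the sum (40.7 to 45.5 CPM and 64.8 to 92.2 CPM), while Vsx1 and Grm6 were at 0.0532 CPM or less in every sample. Müller glia and astrocyte markers summed to 529 to 623 CPM at E18 and 531 to 554 CPM at P5. Of 10 tested, 2 were higher and 2 lower at E18. Glul was higher (313 to 326 CPM at E18 and 230 to 273 CPM at P5), as was Vim (82.2 to 93.9 and 29.4 to 45.3 CPM). Dkk3 (95.1 to 152 and 166 to 201 CPM) and Clu (22.6 to 29.6 and 41.9 to 77.1 CPM) were lower. Slc1a3, which did not pass the test, measured 16.2, 2.80 and 0.475 CPM in E18 replicates 1, 3 and 4. Gfap and Pax2 were at 0.147 CPM or less. Endothelial and pericyte markers summed to 16.5 to 72.8 CPM at E18 and 14.6 to 17.9 CPM at P5. Of 8 tested, 1 was higher and 3 were lower at E18. The higher one, Kdr, made up most of the E18 sums, at 69.5, 62.9 and 14.1 CPM in E18 replicates 1, 3 and 4. Kdr measured 4.79 to 11.3 CPM at P5. Rgs5, a pericyte marker, was lower, at 0.0964 to 0.133 CPM at E18 and 1.47 to 3.08 CPM at P5. The other lower ones were Pecam1 (0.562 to 0.895 CPM at E18 and 2.09 to 2.67 CPM at P5) and Tek (0.544 to 1.01 and 2.26 to 3.64 CPM). Photoreceptor markers summed to 10.5 to 17.9 CPM at E18 and 14.7 to 25.5 CPM at P5. Of 11 tested, 3 were higher and 2 lower at E18. Oligodendrocyte markers summed to 93.9 to 94.4 CPM and 56.4 to 75.5 CPM, with 1 of 7 tested higher (Mog) and 2 lower (Mag and Olig1), and Sox10 was at 0.110 CPM or less. Microglia markers summed to at most 3.32 CPM in any sample. The part of other cells in the results for the FGF genes was not tested.

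All 9 FGF genes passed the filter on low counts. With edgeR's quasi-likelihood test and an adjusted p of 0.05 as the threshold, 3 of them differed between the ages, Fgfr2, Fgf1 and Fgf14, and all 3 were lower at E18. Over all 16449 genes tested, 43.4% differed, 20.8% being higher and 22.5% lower at E18. The FGF genes, with 3 of 9 past the threshold, thus did not exceed that share. The E18 and P5 values did not overlap for 4 of the 9 genes, against 56.1% of all genes tested. The median log2 fold change of E18 over P5 was -0.33 over the 9 genes and 0.00 over all genes. Nothing in the labels says whether the samples came from separate litters or preparations, so the p-values measure the spread between these samples, which may be technical.

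**Figure D1:**
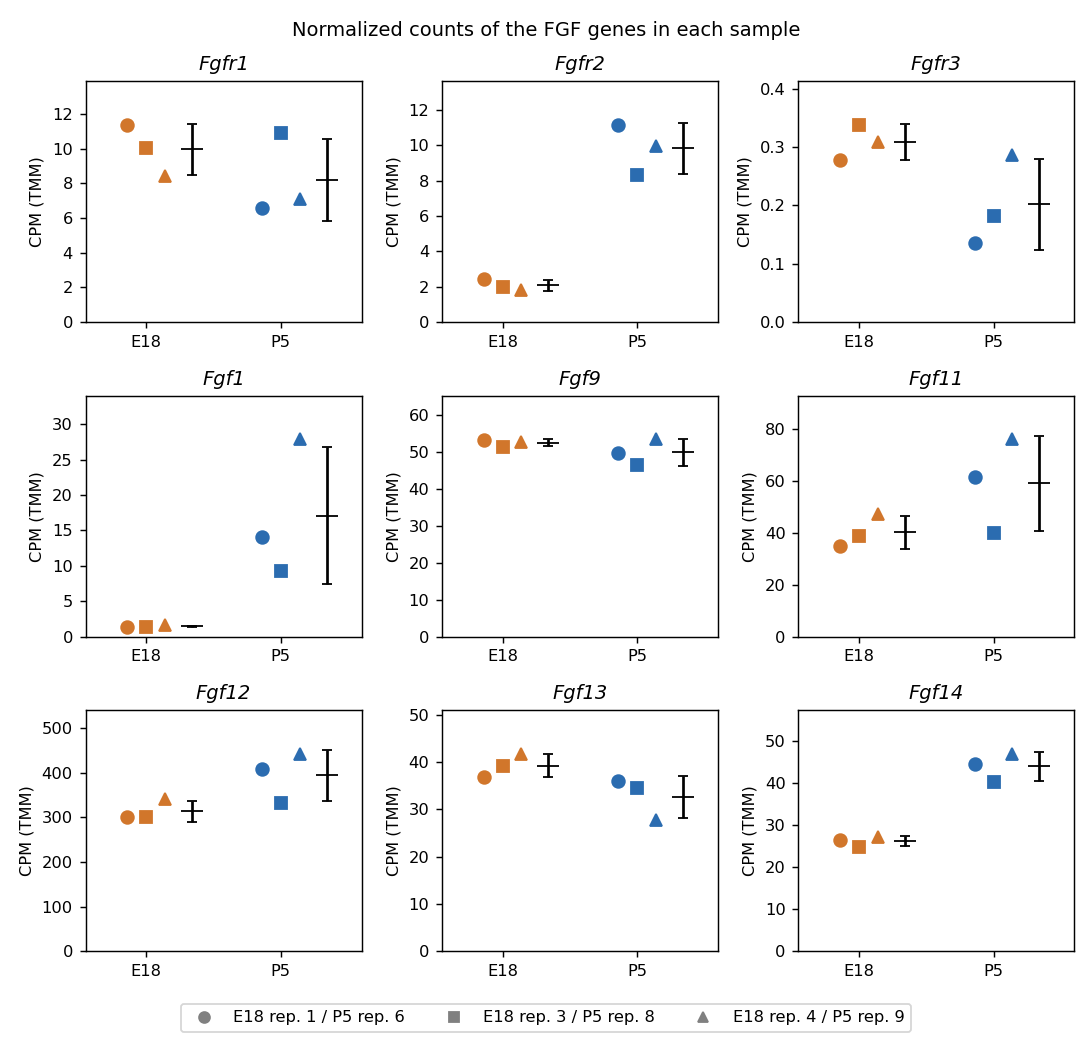
Normalized counts (CPM, y axis, each panel on its own scale from 0) of the 9 FGF genes in each of the 3 E18 samples (orange) and 3 P5 samples (blue), with the mean and SD in black beside the points. Fgfr2, Fgf1 and Fgf14 are lower in every E18 sample than in any P5 sample, Fgf13 is higher in every E18 sample, and the ages overlap for the other 5 genes.

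Of the receptors, Fgfr2 rose from E18 to P5, while Fgfr1 and Fgfr3 did not pass the test. Fgfr2 is a receptor best known from epithelia and glia, and its gene lies on the minus strand at chr7:130162451-130266808 (GRCm38.p6, as for all positions). It measured 2.44, 2.01 and 1.82 CPM in E18 replicates 1, 3 and 4 and 11.2, 8.34 and 9.93 CPM in P5 replicates 6, 8 and 9. Every P5 sample lay far above every E18 sample. The difference was 4.70-fold (log2 fold change of E18 over P5 -2.23, SE 0.190, 95% interval -2.66 to -1.80, adjusted p = 0.000166 by edgeR). In bulk samples such as these, fewer cells of a type and less RNA per cell cannot be told apart.

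Fgfr1 (chr8:25518759-25575718, plus strand), an FGF receptor found on many neurons, measured 11.4, 10.1 and 8.44 CPM at E18 and 6.59, 10.9 and 7.12 CPM at P5. P5 replicate 8 lay within the E18 range and the other P5 samples lay below it. The log2 fold change of 0.28 did not pass the test (SE 0.214, 95% interval -0.21 to 0.76, adjusted p = 0.320 by edgeR). Without P5 replicate 8 it was 0.52 and passed (adjusted p = 0.0318 by edgeR). With any other sample left out it did not pass, and it was 0.18 without E18 replicate 1, 0.18 without P5 replicate 9 and 0.13 without P5 replicate 6 (adjusted p = 0.685 by edgeR).

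Fgfr3 (chr5:33721724-33737068, plus strand), a receptor of progenitors and glia in the nervous system, was near the limit of detection. It had 23, 38 and 28 counted reads at E18 and 12, 18 and 27 at P5. The exact 95% Poisson intervals, which cover counting error only, reached from 14.6 to 52.2 reads at E18 and from 6.20 to 39.3 reads at P5. These are 0.277, 0.339 and 0.309 CPM against 0.135, 0.183 and 0.287 CPM, and the highest P5 sample lay within the E18 range. The difference did not pass the test (log2 fold change 0.61, 95% interval -0.23 to 1.45, adjusted p = 0.210 by edgeR). Fgfr3 overlaps G630022F23Rik and Fgfr1 overlaps Gm16159, each on the other strand. The part of reads from these overlapping genes in the receptor counts was not tested.

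Levels of different genes were compared as RPKM, the CPM divided by the length in kilobases of all exons of a gene in GENCODE M21. Of the summed receptor RPKM, Fgfr1 made up 80.8, 80.8 and 79.6% at E18 and 37.7, 57.1 and 41.9% at P5. Fgfr2 made up 16.5, 15.4 and 16.4% at E18 and 61.2, 41.6 and 55.8% at P5. The E18 samples were nearly alike in this split, whereas P5 replicate 8 kept a larger Fgfr1 share than Fgfr2 share and the other P5 samples did not. Fgfr1 averaged 80.4 ± 0.723% (SD, n = 3) at E18 and 45.6 ± 10.2% at P5, with no overlap, and the exact two-sided permutation test gave p = 0.1, the smallest that 3 samples against 3 allow. The summed receptor level was 1.25 ± 0.177 RPKM at E18 and 1.81 ± 0.115 RPKM at P5 (SD, n = 3), again without overlap and with the smallest possible exact permutation p of 0.1. Of its members, Fgfr2 averaged 0.202 RPKM at E18 and 0.950 RPKM at P5, and Fgfr1 averaged 1.01 RPKM and 0.832 RPKM.

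**Figure D2:**
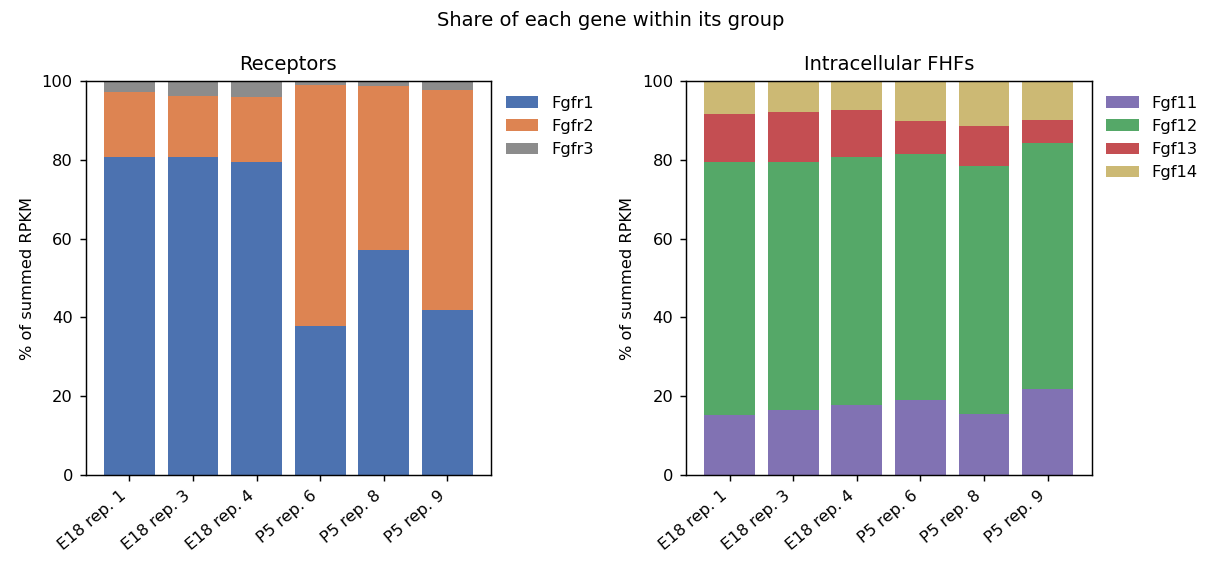
Share of each gene (y axis, % of the summed RPKM of its group) in each of the 6 samples, for the receptors on the left and the FHFs on the right. Fgfr1 holds 79.6 to 80.8% of the receptor level at E18 and 37.7 to 57.1% at P5, while Fgf12 holds 62.3 to 64.3% of the FHF level in every sample.

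Of the secreted ligands, Fgf1 rose from E18 to P5 and Fgf9 did not pass the test. Fgf1, the ligand that binds all FGF receptors and lacks a classical secretion signal, showed the largest fold change of the 9 genes. It measured 1.40, 1.42 and 1.59 CPM at E18 and 14.1, 9.29 and 27.9 CPM at P5. The E18 samples lay close together, the P5 samples spread widely, and the lowest P5 sample was still well above the highest E18 sample. The difference was 11.6-fold (log2 fold change -3.54, SE 0.381, 95% interval -4.41 to -2.67, adjusted p = 0.000378 by edgeR). Without P5 replicate 9, the highest, the log2 fold change was -2.99.

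All 5463 exon bases of Fgf1, on the minus strand of mouse chromosome 18, lie within the span of Arhgap26, a GTPase activating protein gene on the other strand, and none of them is shared with an exon of Arhgap26. Fgf1 also overlaps the noncoding gene AC110730.1 on the other strand. Whether reads were counted by strand is not given in the sources used here. The part of AC110730.1 reads and of Arhgap26 intron reads in the Fgf1 counts was not tested. Arhgap26 itself measured 189, 195 and 219 CPM at E18 and 144, 122 and 146 CPM at P5. It was higher at E18 (log2 fold change 0.55, adjusted p = 0.00381 by edgeR).

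Fgf9 (chr14:58070671-58112854, plus strand), a ligand that neurons secrete, had the smallest log2 fold change of the 9 genes. It measured 53.4, 51.5 and 52.8 CPM at E18 and 49.9, 46.4 and 53.5 CPM at P5, and the E18 samples fell inside the P5 range. The log2 fold change was 0.07 (SE 0.0910, 95% interval -0.13 to 0.28, adjusted p = 0.537 by edgeR). Fgf9 therefore remained the more abundant ligand at both ages, with 11.3 ± 0.207 RPKM at E18 and 10.7 ± 0.768 RPKM at P5 (SD, n = 3). Fgf1 held 2.32 ± 0.162% of the summed ligand RPKM at E18 and 21.6 ± 8.29% at P5 (SD, n = 3), without overlap and with the smallest possible exact permutation p of 0.1. The difference of -19.2 percentage points became -10.5 with the length of the RefSeq transcript named in the table. The summed ligand level overlapped between the ages, at 11.6 ± 0.210 RPKM and 13.9 ± 2.52 RPKM (SD, n = 3, exact permutation p = 0.2).

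**Figure D3:**
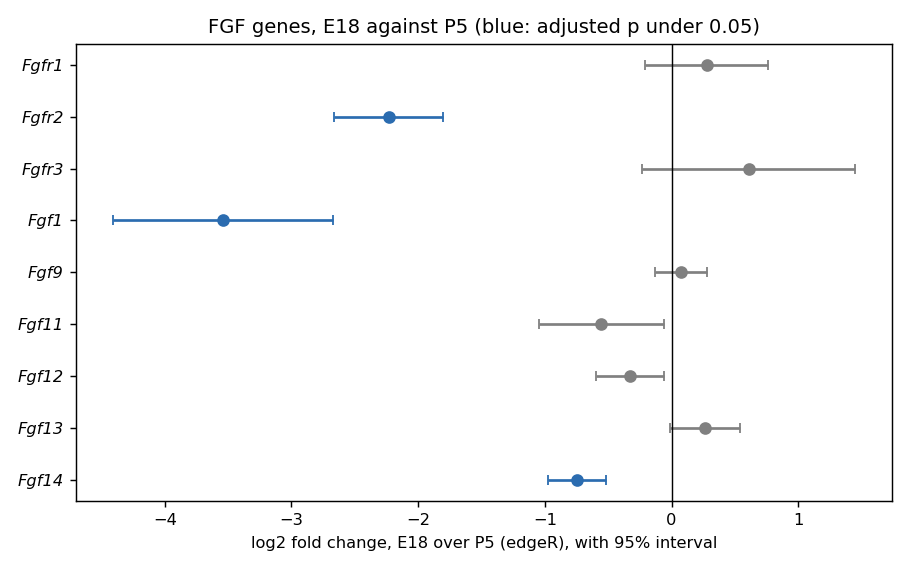
Log2 fold change of E18 over P5 (x axis) for the 9 FGF genes from the edgeR fit, with bars for the 95% interval and blue for an adjusted p under 0.05. Fgf1 at -3.54, Fgfr2 at -2.23 and Fgf14 at -0.75 are past the threshold, and the other 6 lie between -0.55 and 0.61.

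Fgf12 was the most abundant of the FHFs, and of all 9 FGF genes, at both ages. Fgf14, the FHF whose loss or mutation causes cerebellar ataxia, was the one that passed the test. It measured 26.4, 24.9 and 27.3 CPM at E18 and 44.5, 40.3 and 47.0 CPM at P5. All P5 samples were above all E18 samples, with little spread within either age. The difference was 1.68-fold (log2 fold change -0.75, 95% interval -0.97 to -0.52, adjusted p = 0.000899 by edgeR). Fgf14 overlaps Itgbl1, Gm28932 and 1700024B18Rik on the other strand and Gm49069 on its own, and the part of their reads in its counts was not tested. None of its 4182 exon bases lies within the span of Itgbl1.

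Fgf12 (chr16:28157783-28753243, minus strand) is an FHF of excitable cells that binds sodium channels in brain and heart. It measured 301, 300.2 and 341 CPM at E18 and 408, 331 and 442 CPM at P5. P5 replicate 8 lay below E18 replicate 4, and the other P5 samples lay above all E18 samples. The log2 fold change of -0.33 missed the threshold (SE 0.119, 95% interval -0.60 to -0.06, adjusted p = 0.0526 by edgeR), and it was -0.46 without P5 replicate 8 (adjusted p = 0.00483 by edgeR) and -0.24 without P5 replicate 9 (adjusted p = 0.152 by edgeR).

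Fgf11 (chr11:69796068-69802944, minus strand), another FHF of the nervous system, measured 34.8, 38.6 and 47.1 CPM at E18 and 61.2, 39.8 and 76.0 CPM at P5. P5 replicate 8 again lay within the E18 range while the other P5 samples lay above it. The log2 fold change of -0.55 missed the threshold (SE 0.218, 95% interval -1.05 to -0.06, adjusted p = 0.0681 by edgeR), and it was -0.79 without P5 replicate 8 (adjusted p = 0.00357 by edgeR) and -0.33 without P5 replicate 9 (adjusted p = 0.234 by edgeR).

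Fgf13 (chrX:59062139-59585572, minus strand), an FHF that also binds microtubules, had a log2 fold change of the other sign. It measured 36.8, 39.1 and 41.7 CPM at E18 and 35.9, 34.4 and 27.6 CPM at P5. The ages did not overlap, but E18 replicate 1 and P5 replicate 6 were nearly equal. The log2 fold change of 0.26 did not pass the test (SE 0.121, 95% interval -0.01 to 0.54, adjusted p = 0.107 by edgeR).

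Within the summed FHF RPKM, the Fgf12 share was 64.3, 63.0 and 62.9% at E18 and 62.4, 63.1 and 62.3% at P5 (difference 0.839 percentage points, exact permutation p = 0.3). The sign of this small difference depended on the gene length, being -0.302 with the length of the longest transcript. Fgf13 held more than Fgf14 in every E18 sample and less in every P5 sample, though with the length of the longest transcript Fgf13 (13.1 RPKM) remained above Fgf14 (12.2 RPKM) in the P5 mean. The Fgf13 share was 12.1, 12.7 and 11.9% at E18 and 8.47, 10.1 and 6.01% at P5, and the Fgf14 share was 8.38, 7.75 and 7.47% at E18 and 10.1, 11.4 and 9.82% at P5. Neither pair overlapped between the ages, and both gave the smallest possible exact permutation p of 0.1. The Fgf11 share overlapped, at 16.5 ± 1.27% and 18.8 ± 3.21% (SD, n = 3, exact permutation p = 0.3). The FHFs summed to 79.8 ± 6.59 RPKM at E18 and 102 ± 15.2 RPKM at P5 (SD, n = 3, exact permutation p = 0.2).

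Ordered by mean RPKM at E18, Fgf12 (50.6) came first, followed by Fgf11 (13.2), Fgf9 (11.3), Fgf13 (9.76), Fgf14 (6.26), Fgfr1 (1.01), Fgf1 (0.269), Fgfr2 (0.202) and Fgfr3 (0.0431). In that order the ranges of Fgf11 and Fgf9 overlapped, and no other neighbours did. At P5 the order was Fgf12 (63.5), Fgf11 (19.4), Fgf9 (10.7), Fgf14 (10.5), Fgf13 (8.12), Fgf1 (3.13), Fgfr2 (0.950), Fgfr1 (0.832) and Fgfr3 (0.0282), with overlap between Fgf9 and Fgf14 and between Fgfr2 and Fgfr1. Fgf12 was first and Fgfr3 last under all 3 choices of gene length, while the places of Fgf9, Fgf11 and Fgf13, at E18 those of Fgf1 and Fgfr2 and at P5 that of Fgf14 depended on that choice.

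P5 replicate 8 lay nearest to the E18 mean among the P5 samples for 6 of the 9 FGF genes, and for 64.2% of the 7135 genes that differed between the ages. Fgfr2, Fgf1 and Fgf14 stayed past the threshold with each of the 6 samples left out in turn. Their log2 fold changes then ranged from -2.35 to -2.14, from -3.86 to -2.99 and from -0.82 to -0.70.

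**Figure D4:**
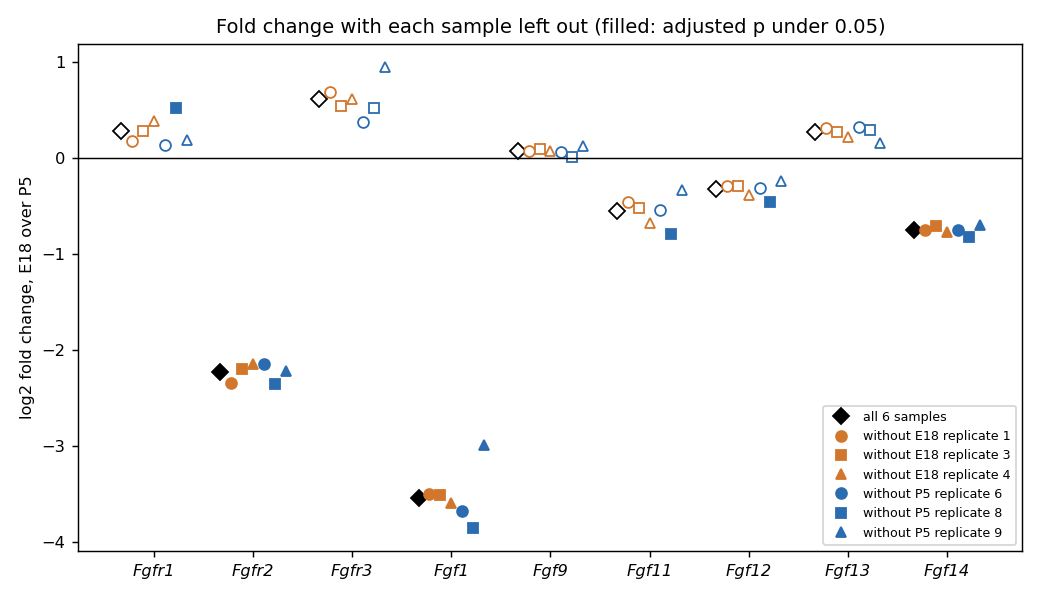
Log2 fold change of E18 over P5 (y axis) of each FGF gene with all 6 samples (diamond) and with each sample left out, where filled symbols have an adjusted p under 0.05 by edgeR. Fgfr2, Fgf1 and Fgf14 are filled throughout, and Fgfr1, Fgf11 and Fgf12 are filled only without P5 replicate 8.

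The FGF genes that differed and had an entry in the RefSeq promoter table were Fgfr2 and Fgf14, and the 250 bases before their start sites are shown because these contrast in base composition. The Fgfr2 stretch lies at chr7:130266809-130267058 (GRCm38.p6, minus strand) and the Fgf14 stretch at chr14:124192547-124192796 (minus strand). The Fgf14 start is that of a transcript that begins inside the gene, which spans chr14:123974441-124677686. Each is written 5′ to 3′ on the gene's strand, with capitals marking GC boxes, the letters GGGCGG or their complement on the other strand.
Fgfr2: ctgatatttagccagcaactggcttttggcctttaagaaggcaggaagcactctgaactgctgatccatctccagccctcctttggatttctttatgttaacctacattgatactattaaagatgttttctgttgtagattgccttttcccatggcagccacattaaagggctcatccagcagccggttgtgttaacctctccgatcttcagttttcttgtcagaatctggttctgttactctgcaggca
Fgf14: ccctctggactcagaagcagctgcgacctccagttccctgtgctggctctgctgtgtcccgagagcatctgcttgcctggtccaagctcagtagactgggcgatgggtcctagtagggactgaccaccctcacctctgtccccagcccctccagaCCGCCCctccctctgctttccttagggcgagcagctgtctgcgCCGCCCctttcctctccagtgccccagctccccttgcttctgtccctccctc

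The Fgfr2 stretch was 44.0% G and C and held no GC box, whereas the Fgf14 stretch was 64.0% G and C and held 2. Over all 32851 entries of the table the median was 52.4% and 32.7% held a GC box. Promoter entries matched 7 of the 9 genes, with 14 start sites in all, of which 8 held a GC box. Those of Fgf9 and Fgf11 held none, both starts of Fgfr3 held at least 2, and the 4 starts of Fgf12 and the 4 of Fgf13 were mixed. The ETS core CCGGAA, sought on both strands, was found at 1 start of Fgf12 and in 3952 of the 32851 entries. The E-box CACGTG (6.02% of entries) and the TATA box TATAAA (12.4%) were found at none of the 14 starts. These are matches of letters in a window and not sites of binding.

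Other genes of the FGF pathway were described by 7 lists, in which 71 of 82 listed symbols were tested. Of these 71 genes 20 were higher at E18, 17 were lower and 34 did not pass the test, with a median log2 fold change of 0.11 against 0.00 over all genes. Both directions were thus present, as they were over all genes (20.8% higher and 22.5% lower). Leaving out E18 replicate 3 lowered the number past the threshold from 37 to 24, and lowered the share over all genes from 43.4% to 27.3%.

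Among the other ligands, 7 of 16 were tested, 4 of which were higher and 1 lower at E18 (median 1.07). Fgf15, a ligand of retinal progenitors, had the largest difference. It measured 21.2, 4.27 and 0.884 CPM at E18 and 0.316, 0.315 and 0.0213 CPM at P5 (log2 fold change 5.33, adjusted p = 0.00775 by edgeR). E18 replicate 1 was highest and E18 replicate 4 lowest among the E18 samples, as for the summed dividing cell markers given above, whose part in the Fgf15 result was not tested, and Fgf15 is also one of the progenitor markers. Fgf5 was higher at E18 (1.38) and Fgf22, a ligand that organizes synapses, was lower (-1.61). Both had low levels. Fgf5 averaged 0.592 CPM at E18 and 0.226 CPM at P5, and Fgf22 averaged 0.353 and 1.07 CPM. Fgf23 and Fgf18, the remaining FGF genes at 1 CPM or more on average, had log2 fold changes of -0.39 and -0.29 and did not pass the test. The number of these ligands past the threshold, 5 with all samples, was 3 without E18 replicate 1, E18 replicate 4 or P5 replicate 6, 2 without P5 replicate 9 and 1 without E18 replicate 3. Over all genes the share past the threshold in these settings was 30.5%, 34.9%, 33.4%, 32.3% and 27.3%, in that order.

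Among 5 further receptors and co-receptors tested, Kl, which encodes the co-receptor Klotho, was lower at E18 (-2.14). Kl had few counted reads, 11, 12 and 13 at E18 and 53 in each P5 sample. The other 4 did not pass the test (median 0.38). A further gene of this list passed without E18 replicate 4 or without P5 replicate 8, when 2 were called. The share over all genes was then 34.9% and 52.5%. Of 19 adaptors and signal transducers, 5 were higher at E18, 2 were lower and 12 did not pass the test (median 0.11). Gab1, a docking protein, and Plcg1, a phospholipase that receptors activate, had the largest positive log2 fold changes, being higher at E18 (1.46 and 0.84), while the kinase Map2k1 was lower at E18 (-0.65).

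Of 12 genes that FGF signalling induces or that restrain it, 5 were higher and 1 was lower at E18 (median 0.45). Dusp6, a phosphatase that restrains FGF signalling, measured 68.6, 66.9 and 56.3 CPM at E18 and 21.2, 20.5 and 8.64 CPM at P5 (log2 fold change 1.93, adjusted p = 0.00154 by edgeR). Spry1, a Sprouty inhibitor of receptor signalling, was 1.87 higher on the log2 scale, with 8.19, 7.57 and 5.98 CPM against 2.32, 2.07 and 1.56 CPM. For both genes all E18 samples lay well above all P5 samples. Etv1, an ETS factor, was lower at E18 (-1.64). The number past the threshold was 3 without E18 replicate 3, E18 replicate 4, P5 replicate 6 or P5 replicate 9 and 10 without P5 replicate 8. Over all genes the share past the threshold in these settings was 27.3%, 34.9%, 33.4%, 32.3% and 52.5%, in that order.

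Heparan sulfate, which ligand and receptor bind together, was represented by 13 genes of its synthesis and editing and by 10 glypicans and syndecans that carry it. Of the enzymes 3 were higher and 4 lower at E18 (median -0.05), led by Sulf1 (0.75) and Ndst3 (0.58) on one side and Hs6st3 (-1.29) and Hs6st2 (-0.96) on the other. Of the carriers 3 were higher and 4 lower (median 0.02). Gpc3 measured 7.62, 5.86 and 6.14 CPM at E18 and 0.609, 0.762 and 0.989 CPM at P5 (log2 fold change 3.05), and Gpc2 was also higher at E18 (2.17). Gpc5 measured 0.446, 0.277 and 0.508 CPM at E18 and 4.90, 5.52 and 8.09 CPM at P5 (-3.92), and Sdc2 was also lower at E18 (-1.35).

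The sodium channel genes whose products FHFs bind were lower at E18. Of 5 partner genes tested, 4 sodium channel genes were lower and 1 did not pass the test (median -0.79). Over all genes 43.4% differed, 22.5% being lower at E18. The 4 calls held with each sample left out, when the share over all genes ranged from 27.3% to 52.5%. Scn1a measured 60.5, 61.0 and 72.8 CPM at E18 and 255, 259 and 350.0 CPM at P5 (log2 fold change -2.15, adjusted p = 8.88e-05 by edgeR). Scn2a1, the table's symbol for Scn2a, measured 221, 240.2 and 262 CPM at E18 and 545, 396 and 665 CPM at P5 (-1.15, adjusted p = 0.00139 by edgeR). The channel differences were thus in the direction of Fgf14, while Fgf12 and Fgf11 had negative values that missed the threshold and Fgf13 had a positive one.

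**Figure D5:**
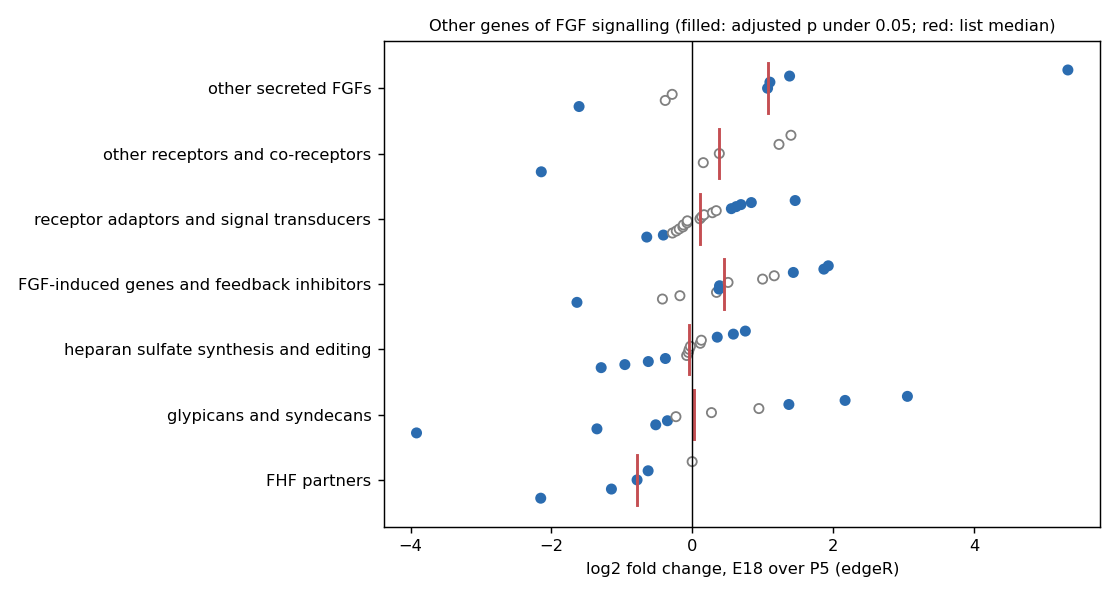
Log2 fold change of E18 over P5 (x axis) of each tested gene in the 7 lists of FGF pathway genes (y axis), filled where the adjusted p by edgeR was under 0.05, with the median of each list as a red line. Fgf15 (5.33) and Gpc5 (-3.92) lie farthest out, and 4 of 5 FHF partner genes are filled below 0.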

How the data were processed

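The authors extracted RNA from 3 E18 and 3 P5 samples of immunopanned RGCs, sequenced it, mapped reads to mm10 (STAR 2.4.0) and summed them per gene (HT-seq 0.6.1). The labels name polyA RNA, while the protocol names ribosomal RNA depletion, and a figure legend of the study also mentions sorting for Thy1. The header for E18 replicate 1 holds 2 and 5 as further numbers, and whether it pools preparations is not stated. The raw counts deposited by the authors were used. The normalized counts (a signal), the log2 fold changes, the p-values and the rank, an other score, that the authors deposited beside them were not used.

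After filterByExpr and TMM scaling, counts of all genes went through the quasi-likelihood test in edgeR 4.0.16 (R 4.3.3), with Benjamini-Hochberg adjustment over all genes tested. The procedure was also run on simulated data, in which a far smaller part of the genes was changed than differed here. The outcome of that run is not given and adds no support to the calls. RPKM used exon lengths of GENCODE M21. Shares and sums were compared by exact two-sided permutation tests (scipy 1.17.1). Alternatives were DESeq2 1.42.0, other edgeR tests, normalizations and filters, other gene lengths and each sample left out. Promoters and coordinates are those of RefSeq on GRCm38.p6, of which the last 50 bases of each promoter entry, after the start, were left out. The genes and lists were chosen with earlier results of these data known. Besides the 9 FGF genes, the text names at most the 2 largest rises and 2 largest falls past the threshold in each list, FGF genes at 1 CPM or more, and for each of the 9 the 2 genes most like it among those at 10 CPM or more. Marker genes and neighbouring genes were named for their values. A few genes that the rule would name are left out here.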

Additional observations from a re-analysis of the deposited data

How the results depend on the processing

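Fgfr2, Fgf1 and Fgf14 stayed lower at E18 and past the threshold under all 13 alternatives, which changed the test, the normalization, the filter or the samples. The number of FGF genes past the threshold was 5 with DESeq2, 5 with edgeR's likelihood ratio test and 5 with its exact test. Each added Fgf11 and Fgf12, and the share over all genes was 46.4%, 45.3% and 45%, in that order. With each sample left out in turn the number of FGF genes ranged from 3 to 6, the 6 arising without P5 replicate 8. Over all genes the share past the threshold then ranged from 27.3% to 52.5%, the latter also without P5 replicate 8. The number of FGF genes past it was 4 with no filter on low counts, which added Fgf11. With at least 1 CPM in 3 samples it was also 4, which added Fgf12 and left Fgfr3 untested. The share over all genes with these filters was 33% and 47.1%, in that order. Fgf11 and Fgf12 were each past the threshold in 5 of 13 alternatives, with adjusted p from 0.00357 to 0.234 and from 0.00483 to 0.165. Fgfr1 passed in 1, and Fgf9, Fgf13 and Fgfr3 passed in none. The 37 pathway genes past the threshold became 24 to 46 with one sample left out. With the length of the longest transcript, and with that of the RefSeq transcript named in the table (chosen after seeing the data), the difference of E18 minus P5 in the Fgf12 share turned from 0.839 to -0.302 percentage points in both cases, and that in summed receptor RPKM went from -0.556 to -1.37 and -1.42. The gene length itself is what differs in these settings, and for the tests the cause was not tested. No paired analysis was possible because the ages share no replicate number. Fgfr3 had the fewest reads of the 9 genes, at most 38 in a sample.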

Other observations

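Over the 6 samples, the genes whose log2 CPM followed 8 of the FGF genes most closely were found among genes of at least 10 CPM. These are 3 libraries of each age, and Fgfr2, Fgf1 and Fgf14 differ between the ages, as many other genes do. Lynx1 and Camkv were nearest to Fgf1 (Pearson r 1.00 and 0.999), with 185 of 9725 genes over 0.99. Camk2n1 and Mcu were nearest to Fgf14 (r 1.00 and 0.999), with 170 genes over 0.99. Pcdh11x and Sorcs1 were nearest to Fgfr2 (r 0.998 and 0.997), with 34 genes over 0.99. Slc7a4 and Thyn1 were nearest to Fgf12, Tes and Anapc5 to Fgf13, Kri1 and Timm10b to Fgf9, Scaf11 and Tbp to Fgfr1, and Pagr1a and Ubl7 to Fgfr3, with 0 to 9 genes over 0.99. These values are descriptions without a test.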
